A study of Mus musculus with 12 samples.

Results

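The 10 genes described here encode actin regulators of the podocyte foot process and the podocalyxin-ezrin complex of its free surface. They are Synpo, Synpo2, Actn4, Inf2, Arhgap24, Myo1e, Podxl, Ezr, Clic5 and Nes, taken as the rows of the read count table whose Ensembl identifier maps to these mouse symbols, 10 of 55487 genes in all. Poly(A)-selected RNA was sequenced from MPC5 cells, an immortalized mouse podocyte line. In 6 libraries (SPARCoe, replicates 1 to 6) the RNA came from cells transfected with a plasmid that overexpresses Sparc (genotype label Sparc overexpression), and in 6 others (vector, replicates 1 to 6) from cells given the empty plasmid (genotype label WT). Both groups thus carry a plasmid, and the design text places the profiling 24 hours after transfection. No label states whether libraries of 1 group were grown as separate cultures, and the p-values therefore reflect library-to-library spread that may be technical. The share of cells that took up the plasmid is not given in the sources used here.

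Podocytes wrap the capillaries of the kidney glomerulus with interdigitating foot processes, whose shape depends on a contractile and crosslinked actin core. Synaptopodin (Synpo) binds this actin and alpha-actinin, alpha-actinin-4 (Actn4) crosslinks the filaments, and the formin Inf2, the Rac GTPase-activating protein Arhgap24 and the class I myosin Myo1e regulate or move along them. In humans, mutations of ACTN4, INF2 and MYO1E cause inherited glomerular disease. On the free surface the sialic acid-rich, negatively charged sialomucin podocalyxin (Podxl) is tied to actin through NHERF adaptors and ezrin (Ezr), a complex that also holds the chloride intracellular channel family protein Clic5. Nestin (Nes) is an intermediate filament protein of podocytes, and Synpo2 (myopodin) is a paralogue of synaptopodin known from muscle.

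Promoter windows were at hand for 7 of the 10 genes, and 3 are shown, the 250 bases before the RefSeq start site on GRCm38.p6. They are those of Synpo2, the gene with the largest response, of Inf2, with the most matches to the motifs searched, and of Myo1e, with the only CArG box found in the 7 genes. Synpo, Arhgap24 and Podxl had no entry.
Synpo2: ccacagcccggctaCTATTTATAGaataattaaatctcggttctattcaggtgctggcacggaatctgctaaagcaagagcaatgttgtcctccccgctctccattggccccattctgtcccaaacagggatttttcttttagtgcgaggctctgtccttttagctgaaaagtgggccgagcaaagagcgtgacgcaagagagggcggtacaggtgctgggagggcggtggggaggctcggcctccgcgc
Inf2: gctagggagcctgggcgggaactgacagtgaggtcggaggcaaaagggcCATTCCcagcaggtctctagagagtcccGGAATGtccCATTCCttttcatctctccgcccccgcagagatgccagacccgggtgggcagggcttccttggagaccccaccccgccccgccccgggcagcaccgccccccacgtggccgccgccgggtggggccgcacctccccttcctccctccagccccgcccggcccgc
Myo1e: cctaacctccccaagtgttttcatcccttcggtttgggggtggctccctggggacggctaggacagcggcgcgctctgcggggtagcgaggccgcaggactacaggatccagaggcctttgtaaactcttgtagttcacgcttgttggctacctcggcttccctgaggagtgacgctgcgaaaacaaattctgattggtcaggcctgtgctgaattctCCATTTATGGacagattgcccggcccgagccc
The Synpo2 window is chr3:123236150-123236399 on the minus strand, the Inf2 window chr12:112588534-112588783 and the Myo1e window chr9:70207100-70207349, both on the plus strand. Capitals mark motif matches on either strand, and no matches overlap. Searched were the CArG box of serum response factor, TGANTCA of AP-1 and CATTCC of TEAD factors. The Synpo2 window held no match to these. The 10 letters in capitals there, CTATTTATAG, were picked after the window was read, and 0.14% of 32851 mouse promoter windows hold them. The Myo1e window held 1 CArG box, found in 1.47% of all windows, and the Inf2 window held 3 matches to CATTCC, found in 12.6%. The Actn4 window held 1 match each to TGANTCA and CATTCC and the Ezr window 1 to TGANTCA, a motif of 6.75% of windows, while those of Clic5 and Nes held none. These matches are descriptions of sequence only.

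Total counts ran from 34927871 to 47380987 in SPARCoe and from 33051035 to 47296258 in vector libraries. Genes with any count numbered 22781 to 24191 in SPARCoe and 21464 to 22037 in vector libraries, without overlap. The cause of this difference was not tested. Sparc itself averaged 10119.7 ± 260.5 CPM (counts scaled to the library size with TMM factors) in SPARCoe and 751 ± 11.2 CPM in vector (SD, n = 6 each), 13.5-fold higher. Vector replicate 4 had the lowest total count and stood apart on the second principal component, which held 7.34% of the variance. All 8 calls below were kept, with their direction, when that library or any other single library was left out.

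The comparison of SPARCoe with vector asks how transcripts of the foot-process apparatus differ when Sparc is overexpressed. Synpo2 rose 4.72-fold, while Synpo fell to 0.689 of its vector level and Arhgap24 to 0.761. Nes, Actn4, Inf2 and Ezr fell to between 0.880 and 0.944 of their vector levels, Podxl rose 1.09-fold, and Myo1e and Clic5 did not pass the test. All 10 genes passed the filter on low counts. By edgeR's quasi-likelihood test with Benjamini-Hochberg adjustment over 15734 genes, 8 of the 10 passed an adjusted p of 0.05, 2 higher and 6 lower. Of all genes tested, 29.1% passed, 14.9% higher and 14.1% lower. The median log2 fold change was -0.08 over the 10 genes and -0.00 over all genes. For 7 of the 10 the difference was below 1.2-fold, as it was for 12485 of the 15734 genes tested.

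**Figure D1:**
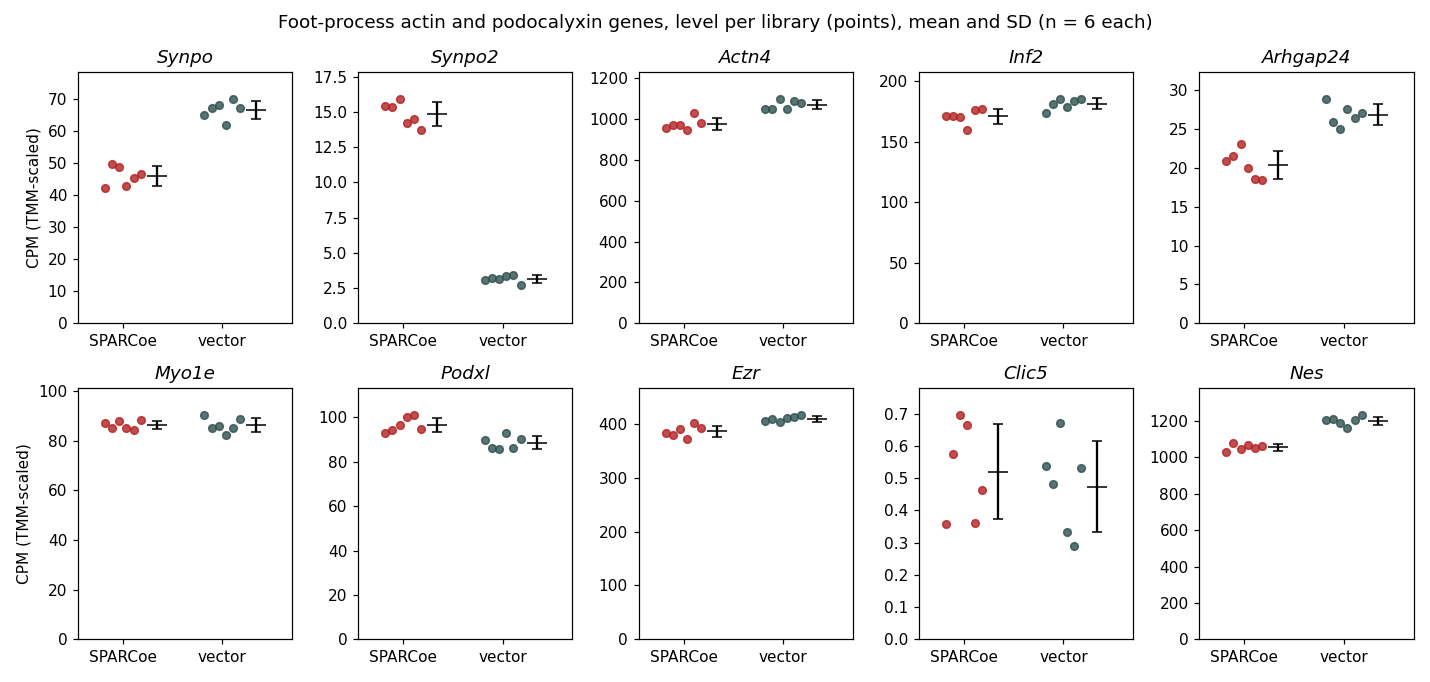
Level of each of the 10 genes in every library, in TMM-scaled CPM on axes that start at 0, with SPARCoe left of vector; points are libraries and the bars give mean and SD (n = 6). The groups are separate for Synpo, Synpo2, Actn4, Arhgap24, Podxl, Ezr and Nes and overlap for Inf2, Myo1e and Clic5.

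The label podocyte was only partly borne out by markers. The defining genes Nphs1 and Wt1 had 53 and 20 counts in SPARCoe and 0 and 37 in vector in all, and Tcf21 had 0. In bulk RNA, fewer cells of a type and less RNA per cell cannot be told apart. Of 20 podocyte markers, 13 were tested, with 4 higher and 4 lower. Synpo, Podxl, Nes and Clic5 are 4 of the 20, and the other 16, led by Kirrel and Cd2ap, summed to 677 to 706 CPM in SPARCoe and 751 to 772 CPM in vector. Of 10 tubule markers, 6 were tested, with 1 higher and 4 lower. The 10 summed to 344 to 383 CPM in SPARCoe and 469 to 502 CPM in vector. Umod was at 0 and Lrp2, the bulk of the sum, at 193 CPM in SPARCoe and 258 CPM in vector. Slc34a1, which was not tested, went the other way, with 74 counts in SPARCoe and 2 in vector. The tubule marker called higher was Slc12a3, with 111 counts in SPARCoe and 13 in vector. Of 8 parietal epithelial markers, 5 were tested, with 1 higher and 3 lower, at a summed 631 to 647 CPM in SPARCoe and 670 to 693 CPM in vector. Mesangial and stromal markers summed to 96.6 to 104 CPM in SPARCoe and 134 to 145 CPM in vector (0 higher and 3 lower of 7 tested), and endothelial markers to 39.9 to 44.3 CPM in SPARCoe and 51.7 to 56.1 CPM in vector (1 higher and 2 lower of 6 tested). Leukocyte markers summed to 18.9 to 20.9 CPM in SPARCoe and 17.9 to 22.1 CPM in vector, with 1 higher and 1 lower of 3 tested, and Ptprc had 41 counts in SPARCoe and 24 in vector. Pecam1 had 42 counts in SPARCoe and 41 in vector, and Emcn had 0. Cdh5, not called, had 89 counts in SPARCoe and 40 in vector. The endothelial marker called higher was Tek, with 130 counts in SPARCoe and 39 in vector. The part of these shifts in the falls of Synpo, Arhgap24, Actn4 and Nes was not tested.

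Synaptopodin fell and its paralogue rose. Positions here and below are those of GENCODE M21 on GRCm38. Synpo (ENSMUSG00000043079, chromosome 18 from 60593973 to 60660142, minus strand) stood at 42.2, 49.8, 48.9, 43.0, 45.5 and 46.6 CPM in SPARCoe replicates 1 to 6 and at 65.2, 67.4, 68.2, 62.0, 70.1 and 67.1 CPM in vector replicates 1 to 6. Every SPARCoe library lay below every vector library. The log2 fold change was -0.54 ± 0.04 (SE, edgeR adjusted p = 8.85e-16). Of all 15734 genes tested, 184 had a lower log2 fold change than Synpo, and 21 of these were among the 9126 genes with a mean of at least 10 CPM.

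Synpo2 (ENSMUSG00000050315, chromosome 3 from 123076519 to 123236149, minus strand) stood at 15.4, 15.4, 15.9, 14.2, 14.5 and 13.8 CPM in SPARCoe replicates 1 to 6 and at 3.07, 3.24, 3.15, 3.37, 3.44 and 2.68 CPM in vector replicates 1 to 6. The lowest SPARCoe library, at 13.8 CPM, lay far above the highest vector library, at 3.44 CPM. The log2 fold change was 2.24 ± 0.08 (SE, edgeR adjusted p = 3.95e-26), from 3762 counts in SPARCoe and 765 in vector. Of all 15734 genes tested, 164 had a larger log2 fold change, and 6 of these were among the 10310 genes with a mean of at least 5 CPM. The 4 genes that M21 annotates within Synpo2 lie in its introns. On log2(FPKM + 1), a scale that understates the change of low genes, the log2 fold change was 1.26.

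FPKM, in which the authors divide the count by library total and gene length, allows both paralogues to be set side by side. Synpo2 held 2.82 ± 0.165 FPKM in SPARCoe and 0.599 ± 0.0526 FPKM in vector (SD, n = 6 each). Synpo held 15.6 ± 1.06 FPKM in SPARCoe and 22.6 ± 0.891 FPKM in vector (SD, n = 6 each). The ratio of Synpo2 to Synpo in FPKM was 0.182 ± 0.0133 in SPARCoe libraries and 0.0266 ± 0.00262 in vector libraries (SD, n = 6 each), 6.84-fold higher in SPARCoe. An exact two-sided permutation test over all assignments of the libraries gave p = 0.00216, the smallest value that 6 against 6 allow. Each gene alone already separated the groups, in opposite directions, so this p-value was fixed by those values and adds no further support. Synpo remained the more abundant of the pair in every library of both groups. The last family member, Synpo2l, a heart and skeletal muscle paralogue, was near the filter with 99 counts in SPARCoe and 142 in vector and was not called (log2 fold change -0.56 ± 0.31, SE, edgeR adjusted p = 0.192).

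Neighbouring genes differed less. The tested genes nearest to Synpo2 on either side were Usp53, with a log2 fold change of 0.11 ± 0.03, and Sec24d, with -0.02 ± 0.03 (SE). The next ones out were 1810037I17Rik and Mettl14, at -0.22 ± 0.03 and 0.07 ± 0.03 (SE). Around Synpo, the genes Rbm22, Dctn4, Ndst1 and Rps14 had log2 fold changes between -0.16 and 0.0005. Usp53 and 1810037I17Rik passed the test (edgeR adjusted p = 0.00433 and 3.55e-07). Dctn4 and Ndst1, both lower like Synpo, also passed (edgeR adjusted p = 0.000637 and 2.63e-09). Over all genes tested, 29.1% passed.

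The actin crosslinker and regulators fell by smaller amounts. Actn4 (ENSMUSG00000054808, chromosome 7 from 28893248 to 28962340, minus strand) was the most abundant of the 10 genes in FPKM. It stood at 955, 972, 972, 949, 1030.0 and 982 CPM in SPARCoe replicates 1 to 6 and at 1051, 1051, 1100.1, 1051, 1089 and 1081 CPM in vector replicates 1 to 6. The groups did not overlap (log2 fold change -0.13 ± 0.02, SE, edgeR adjusted p = 2.04e-07). An exon of Capn12 overlaps Actn4 on the opposite strand, and Capn12 reached 0.342 CPM in SPARCoe and 0.611 CPM in vector, while the mean of Actn4 differed by -93.8 CPM.

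Arhgap24 (ENSMUSG00000057315, chromosome 5 from 102481391 to 102897937, plus strand), which restrains Rac and binds filamin A, had 20.8, 21.6, 23.1, 20.0, 18.5 and 18.4 CPM in SPARCoe replicates 1 to 6 and 28.9, 25.9, 25.1, 27.6, 26.5 and 27.1 CPM in vector replicates 1 to 6. The highest SPARCoe library lay 1.95 CPM below the lowest vector library. The log2 fold change was -0.39 ± 0.05 (SE, edgeR adjusted p = 3.99e-08).

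Inf2 (ENSMUSG00000037679, chromosome 12 from 112588784 to 112615557, plus strand), a formin that elongates and also severs actin filaments, had 171, 171, 170.0, 159, 176 and 177 CPM in SPARCoe replicates 1 to 6 and 174, 181, 185, 179, 184 and 185 CPM in vector replicates 1 to 6. SPARCoe replicates 5 and 6 lay above the lowest vector library, replicate 1. The log2 fold change of -0.09 ± 0.02 passed by edgeR (SE, adjusted p = 0.00498), whereas limma fitted to log2(FPKM + 1) of all genes gave an adjusted p of 0.0516.

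Myo1e (ENSMUSG00000032220, chromosome 9 from 70207350 to 70399766, plus strand) showed no difference beyond the spread. It had 87.2, 84.9, 87.9, 85.1, 84.1 and 88.2 CPM in SPARCoe replicates 1 to 6 and 90.3, 85.0, 86.0, 82.2, 84.9 and 88.7 CPM in vector replicates 1 to 6. The groups overlapped throughout, and the fold change was 1.00 with a 95% interval of 0.964 to 1.04 (edgeR adjusted p = 0.991).

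In the podocalyxin complex, the sialomucin rose slightly while its actin linker fell slightly. Podxl (ENSMUSG00000025608, chromosome 6 from 31519488 to 31563981, minus strand) had 93.2, 94.4, 96.6, 100.03, 101 and 94.9 CPM in SPARCoe replicates 1 to 6 and 89.8, 86.2, 85.8, 93.0, 86.2 and 90.2 CPM in vector replicates 1 to 6. All SPARCoe libraries were above all vector libraries in CPM, by 0.162 CPM at the narrowest gap. In FPKM the groups overlapped, with SPARCoe replicate 1 at 32.57 and vector replicate 4 at 32.63. The log2 fold change was 0.13 ± 0.03 (SE, edgeR adjusted p = 0.000311).

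Ezr (ENSMUSG00000052397, chromosome 17 from 6738041 to 6782784, minus strand) had 383, 379, 390, 372, 401 and 392 CPM in SPARCoe replicates 1 to 6 and 405, 409, 402, 410, 412 and 416 CPM in vector replicates 1 to 6. SPARCoe replicate 5 came within 1.56 CPM of the lowest vector library, and the groups did not overlap. Its log2 fold change came to -0.08 ± 0.02 (SE, edgeR adjusted p = 0.00082). Sytl3, which overlaps Ezr on the opposite strand, had 17 counts in SPARCoe and 7 in vector in all.

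Clic5 (ENSMUSG00000023959, chromosome 17 from 44188584 to 44280172, plus strand) was close to silent in this line, with 131 counts in SPARCoe and 117 in vector over 6 libraries each. Its level ran from 0.358 to 0.695 CPM in SPARCoe (median 0.519) and from 0.288 to 0.671 CPM in vector (median 0.507). The groups overlapped almost completely. The fold change was 1.09 with a 95% interval of 0.739 to 1.60 (edgeR adjusted p = 0.812).

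Nes (ENSMUSG00000004891, chromosome 3 from 87971078 to 87980451, plus strand) had 1027, 1078, 1044, 1068, 1049 and 1062 CPM in SPARCoe replicates 1 to 6 and 1205, 1210.4, 1185, 1161, 1203 and 1231 CPM in vector replicates 1 to 6. The groups were separate, and the log2 fold change was -0.19 ± 0.02 (SE, edgeR adjusted p = 5.82e-12).

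The 7 genes whose groups did not overlap in CPM were 2 higher and 5 lower in SPARCoe. They can be read against all genes tested, of which 15.6% had separate groups in CPM, 8.57% higher and 7.04% lower. The falls also have to be read against level. Of 86 genes with a mean of at least 1000 CPM, where Actn4 and Nes lie, 46.5% were called lower. Of 2417 genes between 100 and 1000 CPM, where Inf2 and Ezr lie, 29.6% were called lower. Between 10 and 100 CPM, where Synpo, Arhgap24, Myo1e and Podxl lie, the share called lower was 18.3% and the share called higher 15.2%. Synpo2, between 1 and 10 CPM, lay in a range where 13.4% were called higher.

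**Figure D2:**
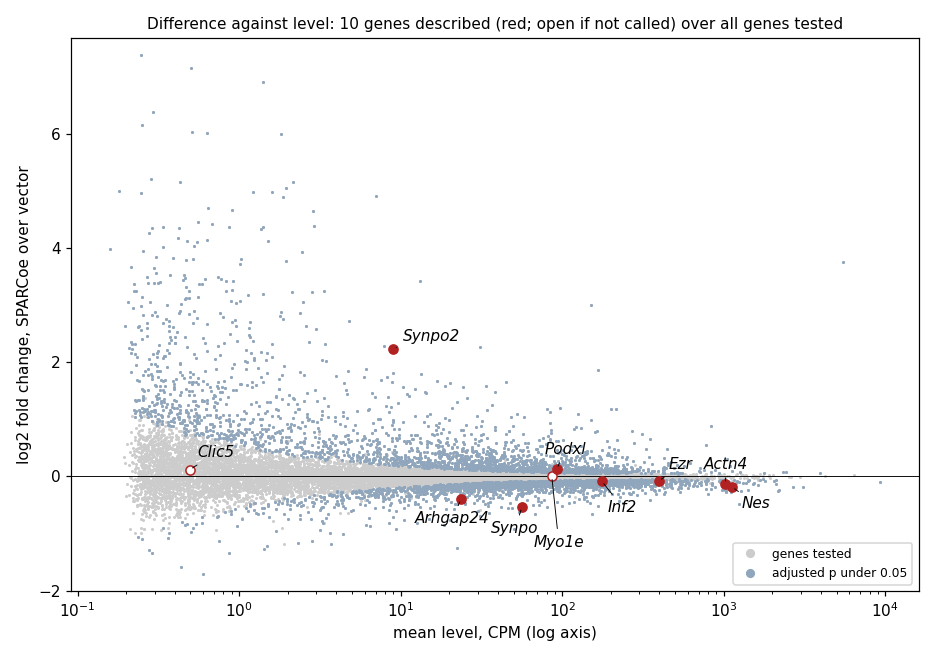
Log2 fold change of SPARCoe over vector against mean CPM (log axis) for all 15734 genes tested, with the 10 genes in red, open where not called. Synpo2, at a log2 fold change of 2.24, stands above most genes of its level, Synpo lies at -0.54, and the abundant genes Actn4, Nes and Ezr lie close to 0.

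In FPKM, the order of the 10 levels was the same in both groups. Actn4 led with 586 ± 16.0 FPKM in SPARCoe and 642 ± 11.98 FPKM in vector. Nes, Ezr, Inf2, Podxl, Myo1e, Synpo, Arhgap24, Synpo2 and Clic5 followed in that order. Nes stood at 236 and 268 FPKM, Ezr at 203 and 215, Inf2 at 71.7 and 76.0, and Podxl at 33.8 and 30.9 in SPARCoe and vector. Myo1e stood at 26.0 FPKM in both, Arhgap24 at 6.90 and 9.07 and Clic5 at 0.135 and 0.123. No neighbours in this order overlapped between libraries of a group. The lengths behind FPKM matter here, since the authors' length of a gene lay within 1 base of the mean length of its M21 transcripts for 97.95% of the 31609 genes compared, and for 9 of the 10 genes. With merged exon lengths, Nes came ahead of Actn4, at 164 and 159 in SPARCoe on the scale of FPKM, where their libraries overlapped, and at 187 and 175 in vector. Podxl and Myo1e libraries then overlapped in vector.

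Whether a gene moved apart from its relatives was asked through its share of the summed FPKM of its family, with 9 shares tested by exact two-sided permutation and Benjamini-Hochberg adjustment. Synpo held 84.2% ± 0.925 of the synaptopodin family in SPARCoe and 96.8% ± 0.338 in vector (SD, n = 6 each, exact adjusted p = 0.00974). This share nearly restates the Synpo2 to Synpo ratio, since Synpo2l held only 0.0995 FPKM in SPARCoe and 0.146 FPKM in vector. It reflects the rise of Synpo2 as well as the fall of Synpo and is not separate support. Arhgap24 held 23.4% ± 1.83 of its family, with Arhgap22 and Arhgap25, in SPARCoe and 30.6% ± 2.22 in vector (SD, n = 6 each, exact adjusted p = 0.00974). In both cases every SPARCoe share lay below every vector share. The other relative of weight, Arhgap22, averaged 26.1 CPM in SPARCoe and 23.8 CPM in vector with an edgeR adjusted p of 0.0527, which did not pass. With upper-quartile factors, and also without vector replicate 4, Arhgap22 passed as higher. Arhgap25 had 0 counts in all libraries, so the Arhgap24 share restates the ratio of Arhgap24 to Arhgap22. Arhgap24 alone already separated the groups, and the p-value of its share is not separate support.

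Actn4 held 52.9% ± 0.271 of the alpha-actinins in SPARCoe and 52.5% ± 0.200 in vector (SD, n = 6 each, exact adjusted p = 0.0519). Its ubiquitous relative Actn1 fell to a similar degree, with a log2 fold change of -0.16 ± 0.02 (SE), while Actn4 gave -0.13. Without vector replicate 1, and with merged exon lengths, the share of Actn4 passed as higher in SPARCoe (exact adjusted p = 0.00649 and 0.0455). The shares of Inf2, Myo1e, Podxl, Ezr, Clic5 and Nes did not pass, with exact adjusted p between 0.170 and 0.571. Podxl held 95.8% ± 0.648 of the CD34 family in SPARCoe and 96.1% ± 0.819 in vector, and Ezr held 25.9% ± 0.443 of ezrin, radixin, moesin and merlin in SPARCoe and 26.4% ± 0.426 in vector (SD, n = 6 each).

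**Figure D3:**
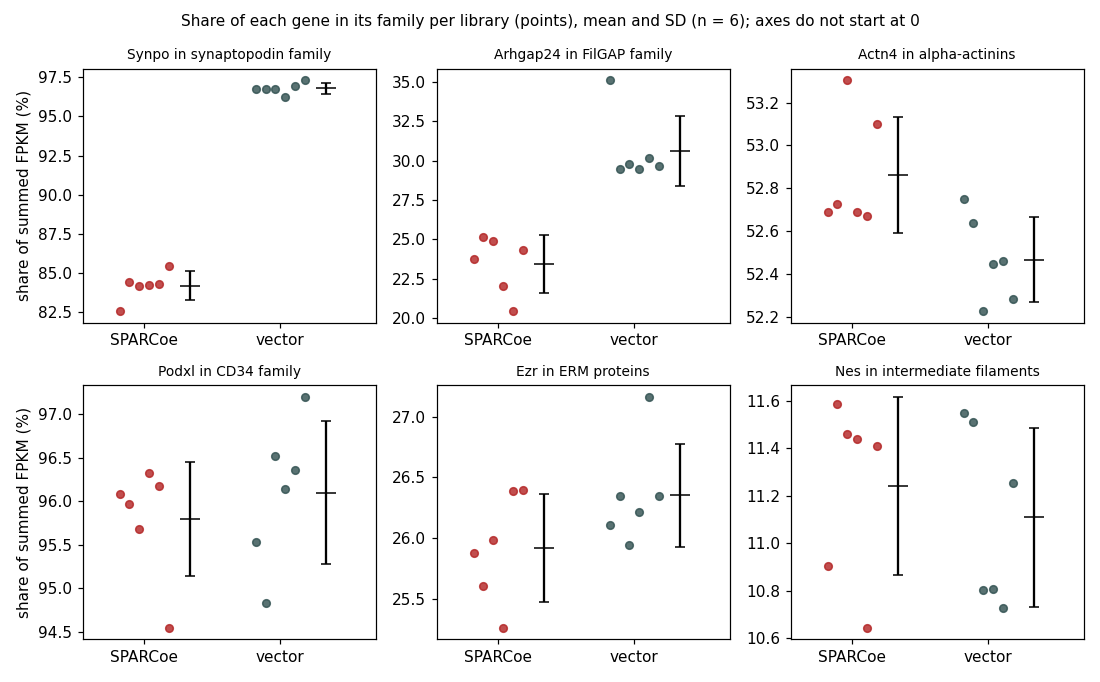
Share of summed family FPKM held by 6 of the genes in each library, in percent, with SPARCoe left of vector; points are libraries, bars give mean and SD (n = 6), and the axes do not start at 0. The groups are separate for Synpo and Arhgap24 and overlap for Actn4, Podxl, Ezr and Nes; the Arhgap24 share of vector replicate 1 lies above the other vector libraries.

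Relatives moved in both directions, and the counts below stand beside 14.1% lower and 14.9% higher over all genes tested. Among the formins other than Inf2, 5 of 12 tested fell and 1 rose, and the 5 lie at levels where 18.3% or 29.6% of genes were called lower. Fhod3, known from heart muscle, averaged 62.3 ± 1.30 CPM in SPARCoe and 84.7 ± 3.26 CPM in vector (SD, n = 6 each, log2 fold change -0.44, edgeR adjusted p = 1.65e-16), and Fmnl1, Diaph3 and Fmnl3 fell by 0.26, 0.13 and 0.10 on the log2 scale. The formin that rose was Fmnl2, at 0.14, named after its value was seen. Among class I myosins other than Myo1e, 3 of 6 rose and 1 fell. Of the 3 that rose, Myo1g and Myo1h lie below 1 CPM, where 15.3% of 2973 genes were called higher and 0.875% lower. Myo1g, a myosin of blood cells, had 147 counts in SPARCoe and 13 in vector, a ratio, scaled for library size, of 10.9 (edgeR adjusted p = 7.58e-08) with an exact 95% interval of 6.17 to 20.9 that covers counting error only. Myo1d rose by 0.25 on the log2 scale, Myo1h, at 0.913 CPM in SPARCoe and 0.575 CPM in vector, by 0.65, and the abundant Myo1c fell by 0.09. Without vector replicate 4, the number that rose was 2.

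Of the proteins closest to ezrin, moesin (Msn) fell by 0.08 and radixin (Rdx) by 0.05 on the log2 scale, and merlin (Nf2), a related protein that restrains growth, rose by 0.11. The Rdx call was lost with upper-quartile factors. Of the CD34 family, Cd34 and Podxl2 were near 1 CPM, with edgeR adjusted p of 0.215 and 0.608. The chloride intracellular channel genes that this line does express, Clic1 and Clic4, were not called either. Clic4 averaged 460 CPM in SPARCoe and 451 CPM in vector (edgeR adjusted p = 0.288).

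Among intermediate filament genes other than Nes, 2 of 7 tested fell and 1 rose. The 2 that fell, Vim and Lmna, lie at levels where 46.5% and 29.6% of genes were called lower. Vimentin (Vim), the partner with which nestin assembles, averaged 1965 ± 67.7 CPM in SPARCoe and 2339 ± 75.4 CPM in vector (SD, n = 6 each, log2 fold change -0.25), and lamin A/C (Lmna) fell by 0.11 on the log2 scale. Synemin (Synm), a muscle-rich filament protein, averaged 6.25 ± 0.476 CPM in SPARCoe and 3.08 ± 0.186 CPM in vector (SD, n = 6 each, log2 fold change 1.02, edgeR adjusted p = 7.86e-12).

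**Figure D4:**
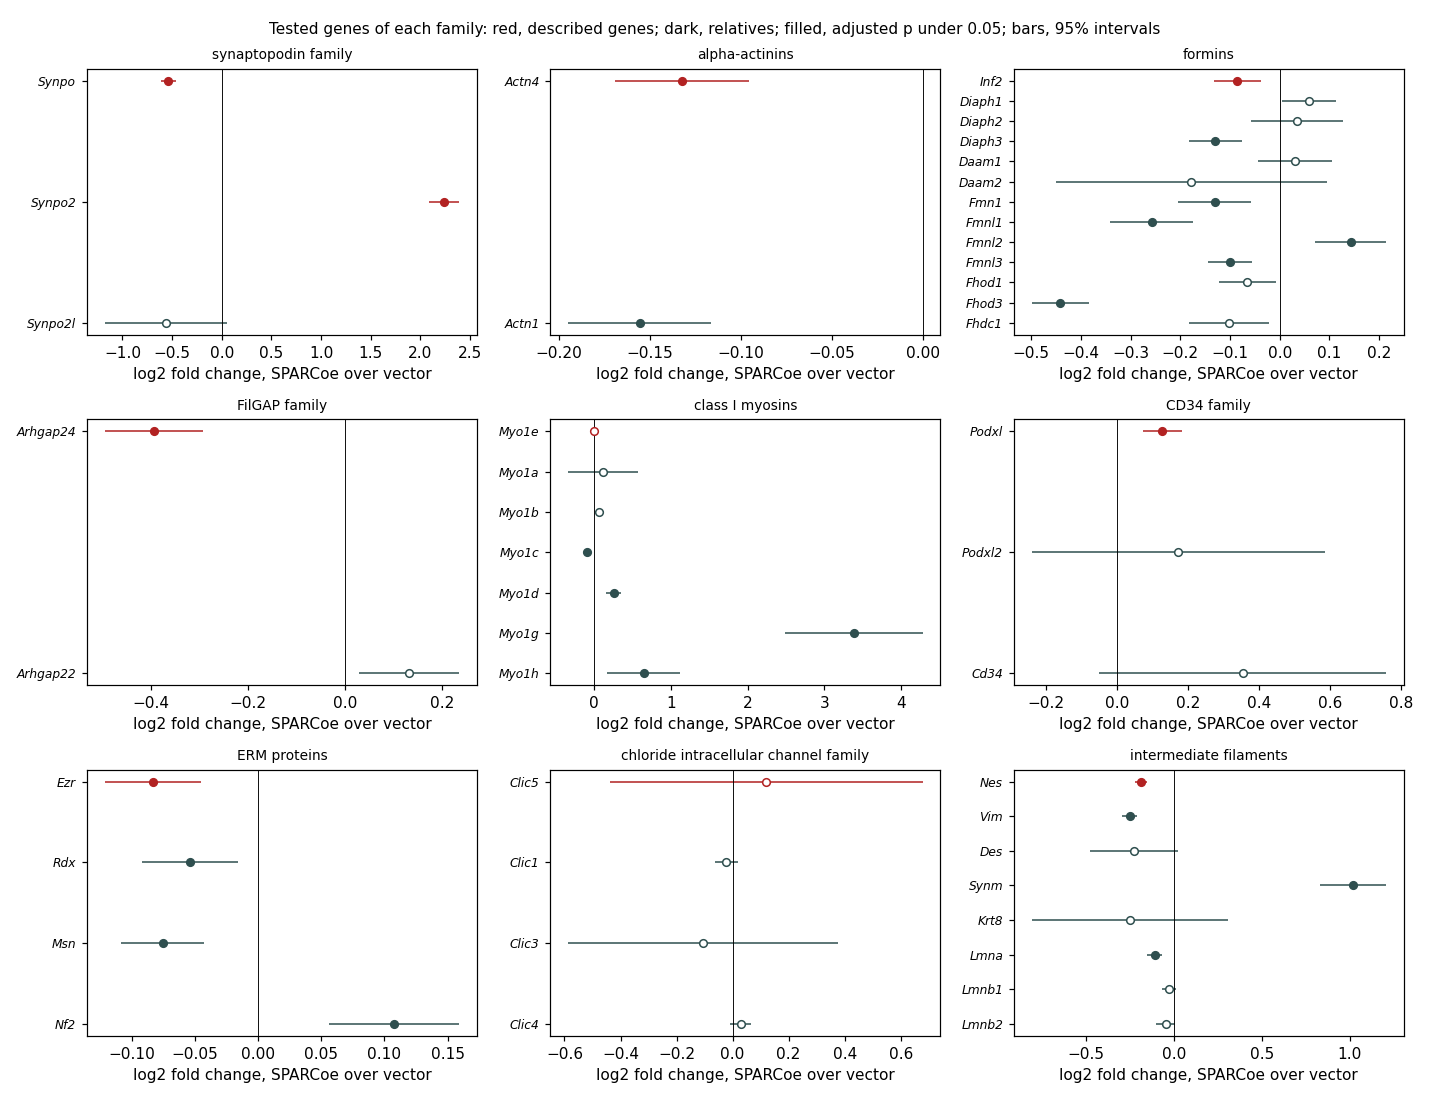
Log2 fold change of SPARCoe over vector for the tested genes of each of 9 families, with bars giving 95% intervals; red marks the genes described, dark points their relatives, and filled points passed an adjusted p of 0.05. Horizontal axes differ between panels. Synpo2 and Synm lie to the right of their relatives, and Actn4 and Actn1 lie close together.

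Of 45 other foot-process actin genes listed, 42 were tested, and 18 fell and 2 rose, with a median log2 fold change of -0.07, beside 14.1% lower and 14.9% higher over all genes. Of those named next, Myh9 and Flna lie in the range of at least 1000 CPM, where 46.5% of genes were called lower, and Palld, Tln1, Vcl, Dlc1 and Rock2 lie between 100 and 1000 CPM, where 29.6% were. The non-muscle myosin heavy chain gene Myh9 fell by 0.24, the actin-bundling scaffold gene Palld by 0.28, and filamin A (Flna), talin (Tln1) and vinculin (Vcl), which join actin to adhesions, each by 0.18 on the log2 scale. Dlc1, which encodes a GTPase-activating protein, fell by 0.19, and the kinase gene Rock2 fell by 0.16 on the log2 scale. Ctsl, the protease cathepsin L, which in mice cleaves synaptopodin, averaged 511 ± 10.98 CPM in SPARCoe and 431 ± 5.37 CPM in vector (SD, n = 6 each, log2 fold change 0.24, edgeR adjusted p = 1.57e-14). The other gene that rose, Wasl, an activator of branched actin, was named after its value was seen (log2 fold change 0.11).

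Of 30 other podocalyxin complex and apical genes listed, 27 were tested, and 8 fell and 4 rose, with a median log2 fold change of -0.02. With upper-quartile factors the counts were 5 lower and 5 higher. Over all genes the shares were 14.1% lower and 14.9% higher. The 8 that fell all lie above 10 CPM, in ranges where 18.3%, 29.6% or 46.5% of genes were called lower. The adaptor gene Slc9a3r2, which encodes NHERF2, fell to 15.3 ± 1.10 CPM in SPARCoe, against 19.0 ± 0.659 CPM in vector (SD, n = 6 each, log2 fold change -0.31, edgeR adjusted p = 1.25e-05). The more abundant adaptor gene Slc9a3r1, named after its value was seen, averaged 86.8 CPM in SPARCoe and 90.3 CPM in vector. It was not called (log2 fold change -0.06, edgeR adjusted p = 0.175). Sytl2, a vesicle docking protein of apical transport, fell by 0.40 on the log2 scale, and the sodium pump subunit gene Atp1b1 by 0.08. Among genes of sialic acid addition, Gne, the key enzyme of sialic acid synthesis, rose by 0.33 and the sialyltransferase gene St3gal1 by 0.34 on the log2 scale. Cmas, which activates sialic acid and was named after its value was seen, fell by 0.13. The lipid kinase gene Pip5k1b rose by 0.71, at 1.88 CPM in SPARCoe and 1.15 CPM in vector, and the ezrin kinase gene Stk10 by 0.11 on the log2 scale.

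**Figure D5:**
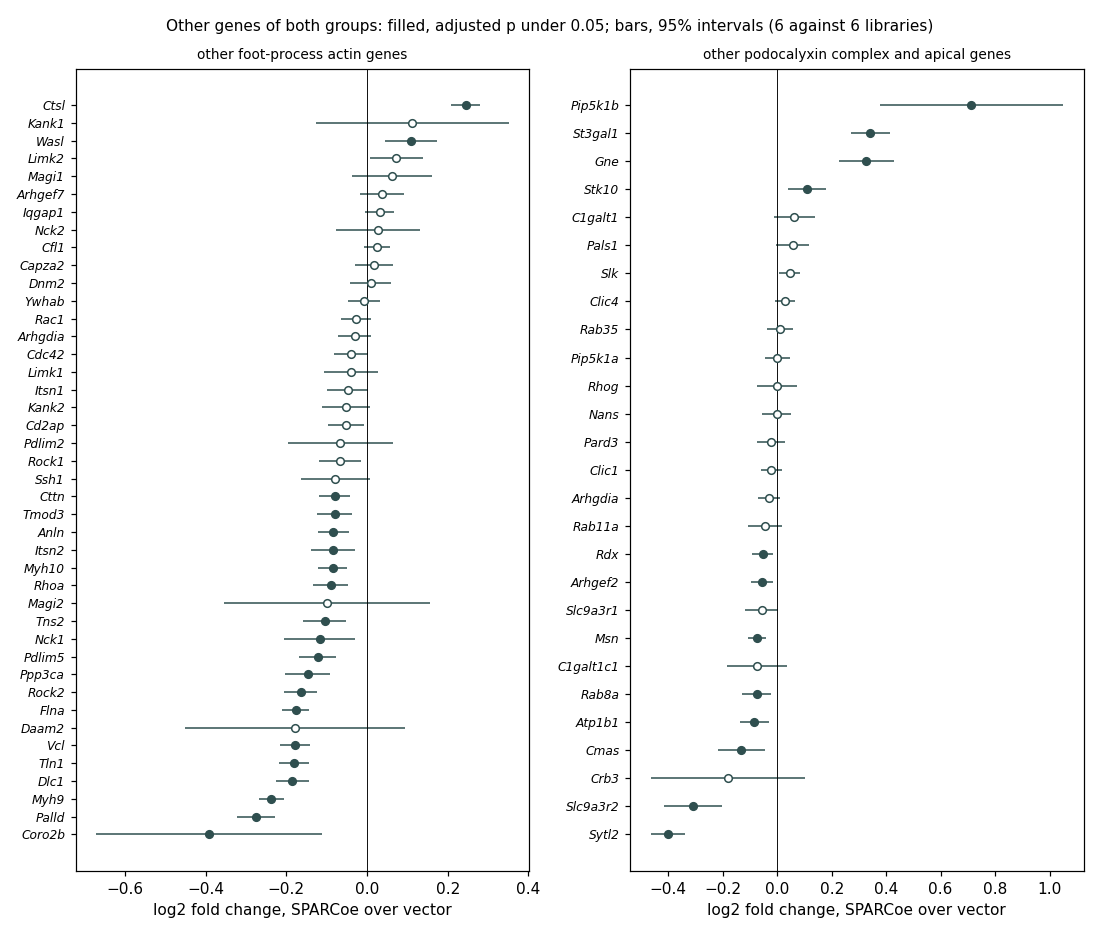
Log2 fold change of SPARCoe over vector for 42 other foot-process actin genes and 27 other podocalyxin complex and apical genes that were tested, sorted by value, with bars giving 95% intervals and filled points where the adjusted p was below 0.05. In the actin panel 18 filled points lie left of 0 and 2 right of it; in the podocalyxin panel 8 lie left and 4 right.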

How the data were processed

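RNA was measured in 12 libraries, 6 SPARCoe and 6 vector, 24 hours after transfection per the design text. The authors deposited read counts per Ensembl gene, used unchanged, and FPKM values, which equal the count divided by the library total and 1 length per gene. Bowtie2, HISAT2, featureCounts, edgeR, SAMtools and Picard are named in the submitters' processing notes. The build, annotation and strand setting were not given in the sources used here, so positions are from GENCODE M21 (GRCm38), and reads of overlapping genes on opposite strands cannot be told apart. Among deposited counts of 1 or 2, 56.67% were 2, so a read pair may be counted as 2; exact intervals treat counts as independent and reflect counting error alone. Symbols from a reference table matched 55141 of 55487 identifiers.

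The test was edgeR 4.0.16 (R 4.3.3) on counts with TMM factors, filterByExpr (15734 genes kept), a robust quasi-likelihood fit to the 12 libraries and Benjamini-Hochberg adjustment, two-sided, at 0.05. The standard error is the log2 fold change divided by the root of F, and 95% intervals are normal. CPM used the TMM factors. Family shares and the Synpo2 to Synpo ratio were tested on FPKM by exact permutation. The pipeline was tested on simulated data.

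The genes, lists and tests were chosen with earlier results of these data known. All 10 genes are named. From each family up to 4 called relatives and the most abundant one are named, and from the 2 other lists up to 8 called genes with the smallest adjusted p. A planned search for genes with a like pattern across the 12 libraries is not reported, because the libraries fall into 2 separate groups. As alternatives, the factors were RLE or upper-quartile, Sparc was removed, and the filter was none or 1 CPM in 6 libraries. Others were DESeq2 1.42.0, limma 3.58.1 with voom quality weights, a replicate block, limma on log2 FPKM (pseudocount 1 or 0.1, mean FPKM of 1 or more, or every gene with pseudocount 1), raw counts for shares, and each library left out. Merged exon lengths were added after the data were seen. Promoter sequences are from RefSeq (GRCm38.p6).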

Additional observations from a re-analysis of the deposited data

Results flagged for a closer look

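Of 40 groups of 6 libraries examined for a single library far from the rest, 3 stood out, and chance flags about 1 in 20. The Arhgap24 share of its family was 35.1% in vector replicate 1, against 29.5% to 30.2% in the other vector libraries; there Arhgap24 was at 28.9 CPM, the highest of the vector libraries, and Arhgap22 at 20.8 CPM, the lowest. Without that library the share still differed, by -6.27 percentage points (exact adjusted p = 0.00649). The Podxl share of the CD34 family was 94.5% in SPARCoe replicate 6, against 95.7% to 96.3% in the other SPARCoe libraries. The difference in this share, -0.301 percentage points with all libraries, was -0.0512 points without that library and -0.553 points without vector replicate 2, and it did not pass in any of these (exact adjusted p = 0.571, 0.898 and 0.289). The Ezr share of ezrin, radixin, moesin and merlin was 27.2% in vector replicate 5, against 25.9% to 26.3% in the other vector libraries. The difference in the Ezr share, -0.434 points with all libraries, was -0.272 points without that library (exact adjusted p = 0.206 and 0.421).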

How the results depend on the processing

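Of 227 values of the 10 genes under 23 alternative settings, 226 kept their direction and side of the threshold where called, or stayed uncalled, and 1 lost its call (Inf2, limma on log2(FPKM + 1) over all genes, log2 fold change -0.08, adjusted p = 0.0516; the cause was not tested). Clic5 gave no value where low genes were filtered out. With each library left out in turn, 8 of the 10 genes remained called, and the count over all genes ran from 4276 to 4476, beside 4571 with all libraries. The fold change of Synpo2 was lowest on log2(FPKM + 1) (log2 1.26). No pairing by replicate number was seen. Same-numbered libraries had correlations of deviations between -0.0106 and 0.0147, and no SPARCoe library was closest to its own number. A weak pairing could escape this check. With a replicate block edgeR called 4663 genes and the same 8 of the 10. In the sign-flip form of the replicate block, whose smallest p is 0.0312, the shares of Synpo (-12.6 percentage points) and Arhgap24 (-7.17 points) had adjusted p of 0.141 over 9 shares, the smallest that 2 shares at that p can reach. The Actn4 share passed with merged exon lengths (0.393 points) and, when single libraries were left out, ranged from 0.308 to 0.453 points, passing without vector replicate 1. Depth limits Clic5 and Synpo2l, each under 1 CPM.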
